A study of Mus musculus with 8 samples.

Results

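In 266-6 cells, a mouse pancreatic acinar cell line, 264 of 33920 genomic regions carried a called peak of histone H3 lysine 27 acetylation (H3K27ac) in both control libraries and in neither library of Arid1a knockdown cells that had not received EGF. These regions are described here as lost with knockdown without EGF. They were found by merging all peaks of 8 libraries that overlapped by at least 1 bp and keeping the regions with that pattern, whatever the EGF-treated libraries held. The pattern chose the regions, so their peaks in control cells and lack of peaks in knockdown cells are a description and not a result. The share of all regions with this pattern, 0.778%, is likewise read as a description.

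H3K27ac marks active promoters and enhancers, and is written by the acetyltransferases p300 and CBP. Arid1a, which binds DNA, belongs to the SWI/SNF (BAF) remodelling complex, which moves nucleosomes and in other cell types keeps enhancers accessible to transcription factors. EGF acts through its receptor and the MAP kinase cascade, a pathway that in acinar cells accompanies a shift towards a duct-like state.

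Libraries came from 4 groups of 2. The siArid1aplusEGF cells received siRNA against Arid1a and EGF, and the EGF cells a non-targeting siRNA and EGF. The siArid1a cells received siRNA against Arid1a and vehicle, and the ctrl cells the non-targeting siRNA and vehicle. All cells were thus transfected, with 25 nM siRNA for 48 h, and starved of serum overnight before 8 h of EGF at 40 ng/ml or of 0.1% BSA as vehicle. The groups are called knockdown with EGF, EGF, knockdown and control below, after the siRNA given. The labels list a pair of siRNAs under the human-style name ARID1A, and Arid1a itself was not measured in the files used here. The labels leave unsaid whether the 2 libraries of a group stem from separate cultures. Each p given here therefore reflects the spread among these libraries alone, and that spread may be technical. All libraries come from a single cell line, and fewer cells with the mark cannot be told apart from less of the mark per cell.

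Lists of peaks differed in length without EGF but not much with it. The knockdown libraries with EGF held 22030 and 23256 peaks and the EGF libraries 22361 and 23080. The knockdown libraries held 26844 and 27558 peaks, and the control libraries 22167 and 28281. The first control list was therefore short and the second long, and a region had to be in both to be counted. Read depth is unknown for every library. A region without a peak is a region in which none was called, which can still be acetylated. Positions are in mouse build mm9. The acinar identity of the cells and the genes beside the regions were not analysed here, since the annotation used here is of another build, and no sequence is printed for the same reason.

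The 264 regions stood at the weak end of the control lists. Their peaks covered a median of 484 bp in the first control library and 709.5 bp in the second, against 1242.5 bp and 1289 bp over all regions with a peak there. The median percentile of the deposited score within its own list was 9.99 in the first control library and 21.9 in the second. The deposited fold enrichment, the authors' value for each peak over the caller's background, had a median of 3.54 and 3.64 in the lost regions, against 4.66 and 4.67 over all regions with a control peak. In 258 of the 264 regions the score was under the list's median in both control libraries. The control peaks of the pair of libraries overlapped each other directly in 262 regions, and in the other 2 they were joined through a peak of another library.

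**Figure D1:**
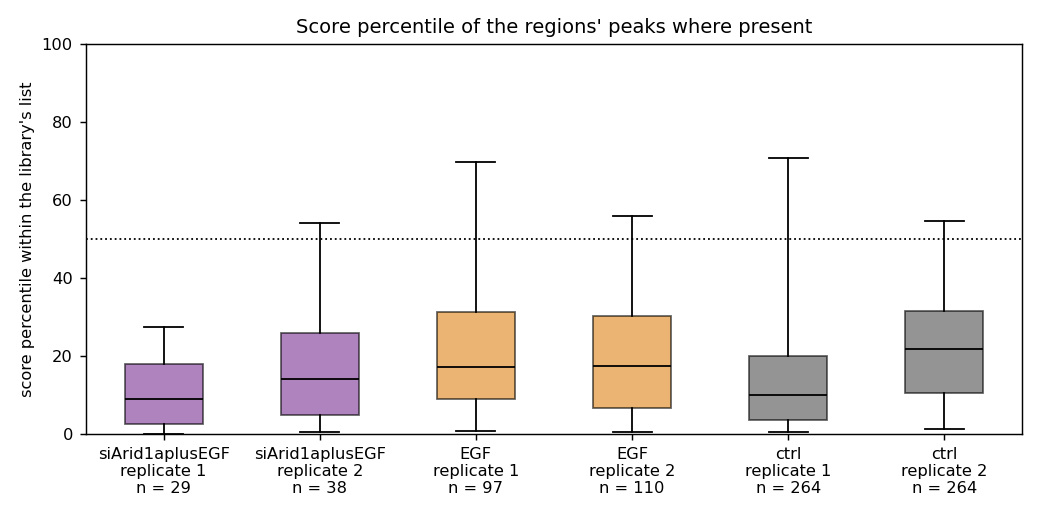
Percentile of the score of each region's best peak within the list of its library, where a peak is present (boxes: quartiles and median; whiskers: lowest and highest; dotted line: middle of the list). Medians lie between 8.98 and 21.9 in all 6 libraries that hold any of these peaks.

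Just outside the rule, a further 634 regions had peaks in both control libraries and in exactly 1 knockdown library. The median width was 941.5 bp in the lost regions, against 1175.5 bp in these 634. Their peak in that single knockdown library covered a median of 598 bp and as little as 200 bp, the narrowest peak in any list. On the other side, 2585 regions had a peak in exactly 1 control library and in no knockdown library.

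The presence of peaks in the 4 EGF-treated libraries was not part of the rule, although their peaks helped to set the borders of the merged regions. Of the 264 regions, 29 (11.0%) and 38 (14.4%) had a peak in the knockdown libraries with EGF. In the EGF libraries, 97 (36.7%) and 110 (41.7%) did. Both knockdown libraries with EGF lay below both EGF libraries, with 12.7 ± 2.41% in knockdown cells with EGF against 39.2 ± 3.48% in EGF cells (SD, n = 2 each), a difference of -26.5 percentage points. The two-sided exact permutation p was 0.33, the smallest that 2 libraries against 2 allow, so no threshold could be passed. Over all 33920 regions the shares were 63.4 ± 2.53% with knockdown and EGF and 63.6 ± 1.63% with EGF (SD, n = 2 each), a difference of -0.23 points (exact permutation test, two-sided, p = 1). With regions merged from the 4 libraries without EGF alone, a choice made after seeing the data, 267 regions followed the rule and the difference was -27.15 points. The sign was kept when any single library was left out, also from the choice of regions. The size moved, most with the control libraries. Without the first control library, the regions chosen numbered 2659 and the difference was -7.90 points. Without the second they numbered 454 and the difference was -15.9 points. Without the first knockdown library they numbered 510 and the difference was -24.9 points, and without the second 652 and -19.1 points.

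**Figure D2:**
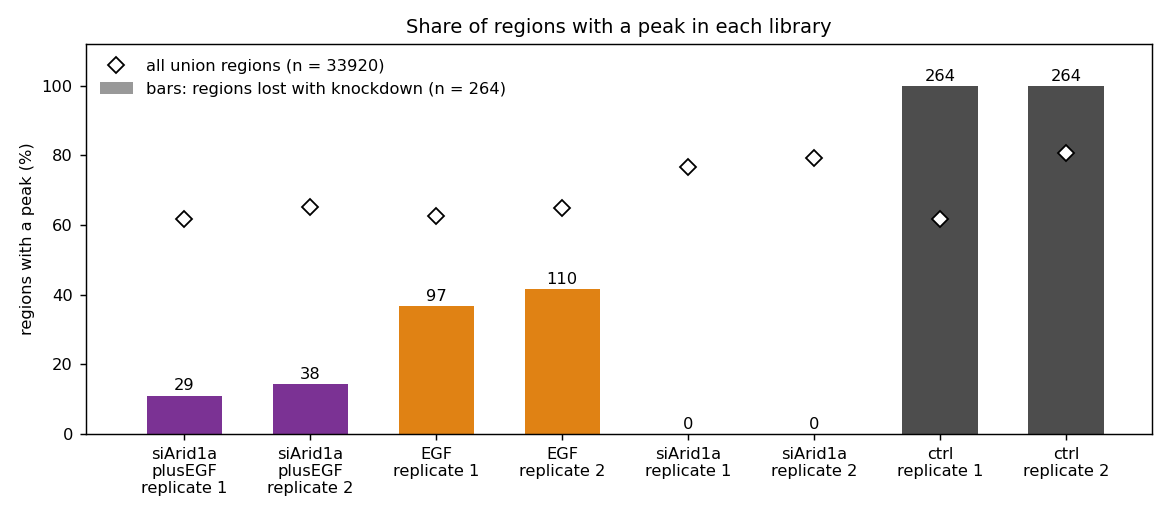
Share of the 264 regions with a peak in each library (bars, with the number of regions above them) and share of all 33920 regions (diamonds). The bars of the 4 libraries without EGF, at 0 and 264 regions, were set by the choice of regions; the knockdown libraries with EGF hold 29 and 38 of them and the EGF libraries 97 and 110.

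The regions divided almost evenly into those with no peak in any EGF-treated library and 131 with a peak in at least 1. In 133 regions (50.4%) no EGF-treated library had a peak, against 24.1% of all regions. In 44 regions (16.7%) both EGF libraries had a peak and neither knockdown library with EGF did, a pattern held by 2.34% of all regions. The reverse, a peak in both knockdown libraries with EGF and in neither EGF library, was held by 1 region (0.379%) and by 2.02% of all regions. All 4 libraries had a peak in 20 regions (7.58%), against 52.9% of all regions. Both EGF libraries and 1 knockdown library with EGF had a peak in 16 regions (6.06%, against 3.19% of all regions). A peak in 1 EGF library alone was held by 41 (15.5%, against 4.85%). A peak in 1 library of each group was held by 6 (2.27%, against 2.46%). The remaining 3 (1.14%, against 5.06%) had a peak in 1 knockdown library with EGF alone.

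**Figure D3:**
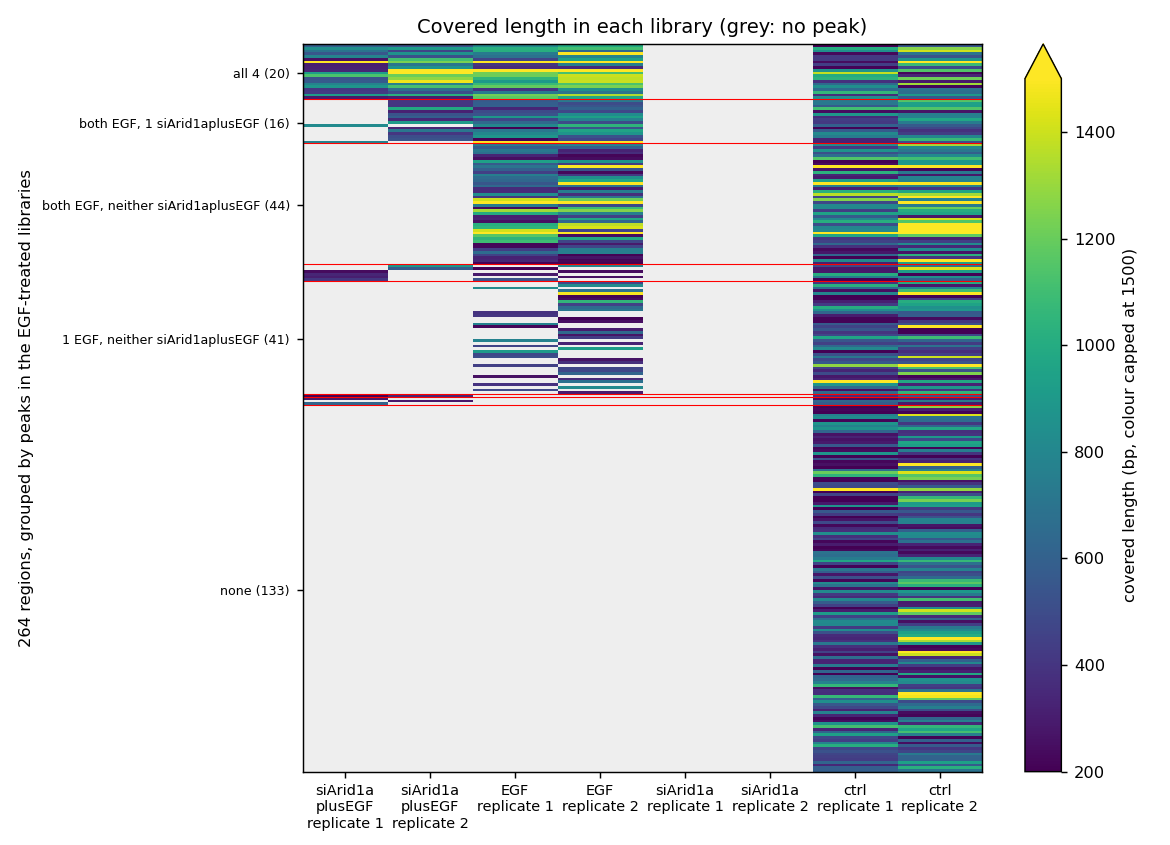
Covered length in bp of each of the 264 regions (rows) in each library (columns), grouped by their peaks in the EGF-treated libraries (grey: no peak; the colour scale is capped at its upper end). The lower block of 133 regions is grey in all 4 EGF-treated libraries, and the block of 44 regions is coloured in both EGF libraries only.

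Covered length is not separate from presence, since a library without a peak counts as 0 bp. Mean covered length was below that of EGF cells in 120 regions with knockdown and EGF, above it in 11, and 0 in both groups in 133. The 120 include the 44 and 41 regions with peaks in EGF libraries only, and the 11 include the 1 and 3 with peaks in knockdown libraries with EGF only. These counts thus largely restate presence and are no separate support for a direction. Over all regions it was below in 11944 and above in 13801. Both knockdown libraries with EGF lay below both EGF libraries in 65 regions (24.6%), where 14.2% of all regions did so, and above both in 1 region (0.379%), where 17.3% did. The summed length over the 264 regions was 17454 and 28927 bp with knockdown and EGF, against 71537 and 83375 bp with EGF.

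No single region passed the test of this difference. Covered length was compared with limma on the scale of log2(covered bp + 200) over the 25761 regions that any of the 4 EGF-treated libraries covered, and 131 of the 264 regions entered. The added 200 bp is the length of the narrowest peak and understates differences of short peaks. At a Benjamini-Hochberg adjusted p under 0.05, limma called 0 of the 131 and 0 of all regions (0% in either direction; smallest adjusted p = 0.140). At an unadjusted p under 0.05 there were 44 of the 131 lower and 0 higher, against 6.61% lower and 7.47% higher over all regions. Many of the 131 entered only through their EGF peaks, so these counts are no support for a direction. Leaving out a library leaves 1 in its group, and calls of such fits are not counted here. The median log2 difference of the lost regions fitted was -1.09 on all 4 libraries. It was -1.41 without the first EGF library and -1.41 without the second. Without the first knockdown library with EGF it was -0.91, and without the second -1.16. These medians are likewise no support for a direction. Where both libraries of the group left whole had the same length, no spread remained within it. A fit on all 8 libraries, over 28146 regions with a peak in at least 2 of them, called 120 regions lower (0.426%) and 66 higher (0.234%), and 4 of the lost regions were among the lower ones. That fit takes part of its spread from the knockdown libraries without EGF, which have no peak in any of the 264 regions, so it is not independent of their choice.

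These 4 regions, named after their values were seen, had peaks in both EGF libraries and in neither knockdown library with EGF. The adjusted p of the fit on 8 libraries is not given for them, since libraries that chose the regions entered it. The region chr11:109004978-109007053 had no peak in either knockdown library with EGF, against 1616 and 1515 bp in the EGF libraries. The control libraries covered 1772 and 2076 bp of it. The difference between knockdown with EGF and EGF was -3.14 ± 0.26 (SE) on the log2 scale, with a limma adjusted p of 0.140 on the 4 EGF-treated libraries. Its size hung on the added length, at -5.01 with 50 bp added and -1.36 with 1000 bp. Both knockdown libraries with EGF were at 0 bp and added no spread to the SE. Its EGF peaks were thus somewhat shorter than its control peaks, and none of the 4 knockdown libraries held a peak.

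The other 3 had the same pattern of presence, but not the same order of EGF and control lengths. The region chr1:73096935-73098410 had no peak in the knockdown libraries with EGF, against 1406 and 1209 bp in the EGF libraries (-2.91 ± 0.28 SE, limma adjusted p = 0.140). Its control peaks covered 1252 and 778 bp. The region chr4:99060825-99061930 likewise had no peak in knockdown cells with EGF and was covered over 1045 and 975 bp with EGF (-2.60 ± 0.30 SE, limma adjusted p = 0.140). There the control peaks were narrower than those with EGF, at 407 and 303 bp. The region chr2:57063499-57064559 had no peak in knockdown cells with EGF, against 1001 and 767 bp in EGF cells (-2.43 ± 0.33 SE, limma adjusted p = 0.140). Its control peaks covered 950 and 957 bp.

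Other regions among the 44 with peaks in both EGF libraries only were also named after their values were seen. They had longer peaks with EGF than in the first control library, which has the shorter list. Against the second control library, both EGF peaks were longer only at chr6:53376762-53378168. There the order was mixed at chr5:141607402-141608401 and turned at the rest. The region chr6:53376762-53378168 had no peak with knockdown and EGF, against 1319 and 1260 bp with EGF, and 437 and 1009 bp in control cells (-2.90 ± 0.28 SE; limma adjusted p = 0.140). The region chr12:33902610-33906062 had 3297 and 1501 bp with EGF and 481 and 3453 bp in control cells. The region chr3:85338815-85340476 had 1014 and 1369 bp with EGF and 508 and 1508 bp in control cells. At chr5:141607402-141608401 the EGF peaks were 944 and 866 bp and the control peaks 200 and 890 bp, and at chr1:92252469-92254196 they were 1046 and 1427 bp with EGF and 794 and 1728 bp in control cells. Over the 44 regions, covered length with EGF ranged from 213 to 3297 bp in the first library (median 639.5 bp) and from 200 to 2076 bp in the second (median 615 bp). These 5 regions lay above the medians of the 44 with EGF. They were chosen for their low limma p, which favours long EGF peaks, so this follows from their choice. In the control libraries the medians of the 44 were 657 and 898 bp.

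Ranked by the lower of their control score percentiles, the leading regions mixed these patterns. The first 3 were level at a percentile of 35.3. The region chr17:15367822-15369140 was without a peak in knockdown cells with EGF and had 741 and 786 bp in EGF cells, against 822 and 1319 bp in control cells. Its difference was -2.27 ± 0.33 (SE; limma adjusted p = 0.142). The region chr1:73136085-73137237 had 0 and 405 bp with knockdown and EGF, against 572 and 725 bp with EGF and 726 and 1153 bp in control cells. In this region 1 knockdown library with EGF kept a narrower peak. The region chr18:4036467-4037740 had 208 and 1274 bp in the control libraries and no peak in any EGF-treated library. Its control peaks were thus of very unequal length.

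Of the leading 20, 6 regions had peaks in both EGF libraries and in neither knockdown library with EGF, the region on chromosome 17 above among them. The region chr6:134549048-134549862 had 591 and 593 bp with EGF, nearly equal in the replicates (-1.99 ± 0.35 SE; limma adjusted p = 0.164). The region chr1:161974223-161975216 had 726 and 331 bp with EGF and 869 and 715 bp in control cells. The region chr6:143427641-143428396 had 680 and 369 bp with EGF and 515 and 593 bp in control cells. Replicates with EGF were thus uneven at both of these, and the longer EGF peak at the second was longer than either control peak. Peaks with EGF were shorter than in control cells at chr6:87431754-87432579, with 334 and 218 bp against 675 and 826 bp in control cells. They were also shorter at chr5:121514279-121515586, with 252 and 242 bp with EGF against 1146 and 1099 bp in control cells.

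Among the leading 20, a peak was present in the second knockdown library with EGF alone at 4 regions, and in the first alone at none of them. These 4 were chr1:73136085-73137237, chr14:62428335-62429276, chr5:121563787-121564720 and chr10:40447487-40448795. At chr14:62428335-62429276 the values were 0 and 407 bp with knockdown and EGF, against 588 and 502 bp with EGF. At chr10:40447487-40448795 they were 0 and 992 bp with knockdown and EGF, against 338 and 611 bp with EGF, so the groups overlapped and the difference of -0.44 ± 0.99 (SE; limma adjusted p = 0.849) had no settled sign. Without the first knockdown library with EGF it was 0.85, and on lists of equal length 0.57.

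A further 4 of the leading 20 had a peak in 1 EGF library alone. These were chr17:15486834-15487838 (477 bp, second EGF library), chr10:38282299-38283547 (826 bp, second), chr16:73038596-73039542 (829 bp, first) and chr7:130637085-130638181 (685 bp, second). None of them had a peak in knockdown cells with EGF. With 1 EGF library holding no peak, the groups overlap at 0 bp, and the limma adjusted p was 0.662 for each.

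The other six of the leading 20 had no peak in any EGF-treated library, like 133 of the regions as a whole. Besides the region on chromosome 18, they were chr15:58570500-58570818, chr17:34837364-34837611, chr1:121921195-121922625, chr10:53821650-53822816 and chr15:87968125-87968814. At chr10:53821650-53822816 the control libraries covered 830 and 680 bp, and at chr1:121921195-121922625 they covered 764 and 1431 bp. Regions of this kind had a median width of 793 bp, against 1105 bp in the 44 regions that kept their peak with EGF only. They say nothing of knockdown under EGF, since neither group had a peak to lose.

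**Figure D4:**
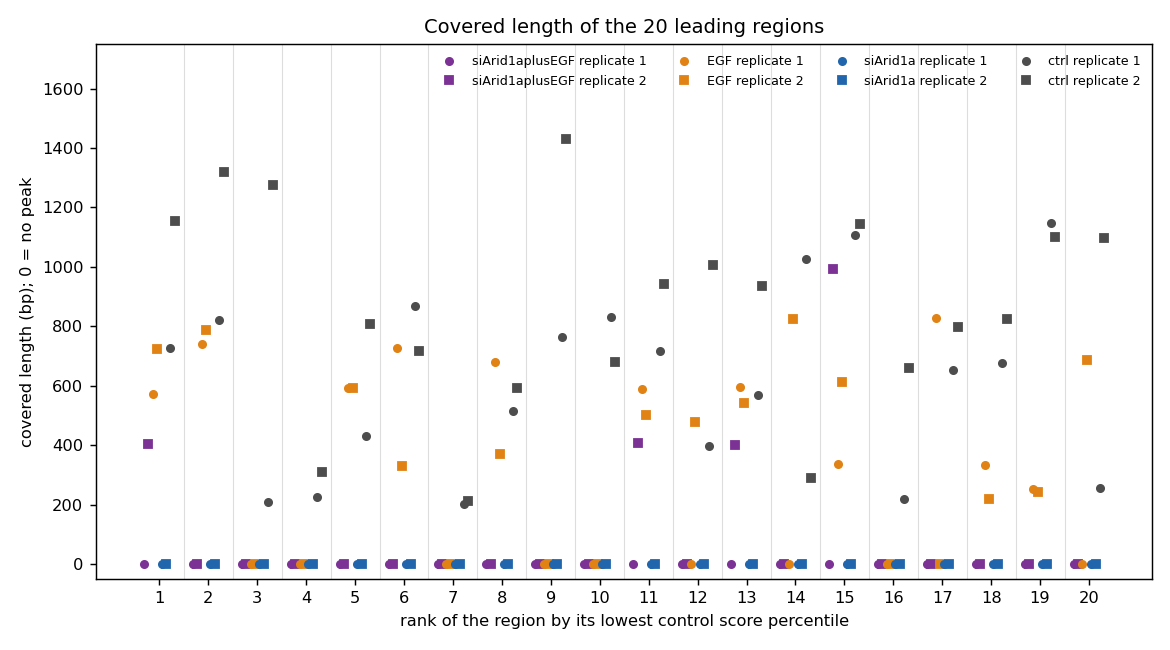
Covered length in bp (0 for no peak) of the 20 regions ranked by the lower of their control score percentiles, in each library (circles: replicate 1; squares: replicate 2). The knockdown libraries lie at 0 by choice; the knockdown libraries with EGF lie at 0 in all but 4 regions, where the second library alone has a peak.

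A peak was present in all 4 EGF-treated libraries in 20 of the lost regions (7.58%, against 52.9% of all regions). Those ranked highest were chr10:62652284-62653273, chr5:30786855-30788249 and chr4:95025700-95027424. The first had 598 and 535 bp with knockdown and EGF, against 814 and 990 bp with EGF (-0.52 ± 0.19 SE; limma adjusted p = 0.373). The second had 840 and 909 bp with knockdown and EGF and 1021 and 1107 bp with EGF (-0.23 ± 0.14 SE; limma adjusted p = 0.600). The region on chromosome 4 had 695 and 469 bp with knockdown and EGF, against 1017 and 637 bp with EGF, so that its groups overlapped. In the other two the groups did not overlap, and knockdown with EGF was the lower. The widest of the 20, chr6:54073987-54077413, had 1891 and 1241 bp with knockdown and EGF, against 2327 and 3102 bp with EGF, and 242 and 1602 bp in control cells (-0.73 ± 0.25 SE; limma adjusted p = 0.340). It was named after its values were seen. Over the 20 regions the median length was 582.5 and 887 bp with knockdown and EGF, against 1019 and 1115.5 bp with EGF. Mean length was below that with EGF in 18 of the 20 regions and above it in 2, and no region among them passed the limma test. The same count was not taken over all regions with a peak in all 4 of these libraries. The 18 and 2 are therefore a description, and whether they are particular to the lost regions was not tested.

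Of the 11 regions with a longer mean with knockdown and EGF, 1 had a peak in both of those libraries and in neither EGF library. This region, chr16:84392061-84392658, had 200 and 333 bp with knockdown and EGF and no peak with EGF, while without EGF it had no peak with knockdown and 370 and 549 bp in control cells. Its difference under EGF was 1.21 ± 0.44 (SE; limma adjusted p = 0.368), the control score percentile was 3.46 in the first library, and a peak of the knockdown libraries without EGF lay 854 bp away.

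The shares under EGF were also taken in regions chosen by other patterns without EGF. Among the 634 regions just outside the rule, with 1 knockdown library holding a peak, 30.3 ± 4.24% had a peak with knockdown and EGF and 47.9 ± 4.13% with EGF (SD, n = 2 each), a difference of -17.6 points. In the lost regions it was -26.5 points. Among the 2585 regions in 1 control library and no knockdown library the shares were 7.12 ± 1.86% with knockdown and EGF and 12.6 ± 1.31% with EGF (SD, n = 2 each). In the 19512 regions with a peak in all 4 libraries without EGF they were 91.9 ± 1.13% with knockdown and EGF and 91.9 ± 0.82% with EGF (SD, n = 2 each). In the 1032 regions with the opposite pattern, a peak in both knockdown libraries and neither control library, the order was turned, with 33.9 ± 4.18% with knockdown and EGF against 18.4 ± 1.51% with EGF (SD, n = 2 each). The two-sided exact permutation p was 0.33 for each of these differences but that of the 19512 regions, where it was 1. Whether the lost regions differ from the other sets in the size of this difference was not tested.

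**Figure D5:**
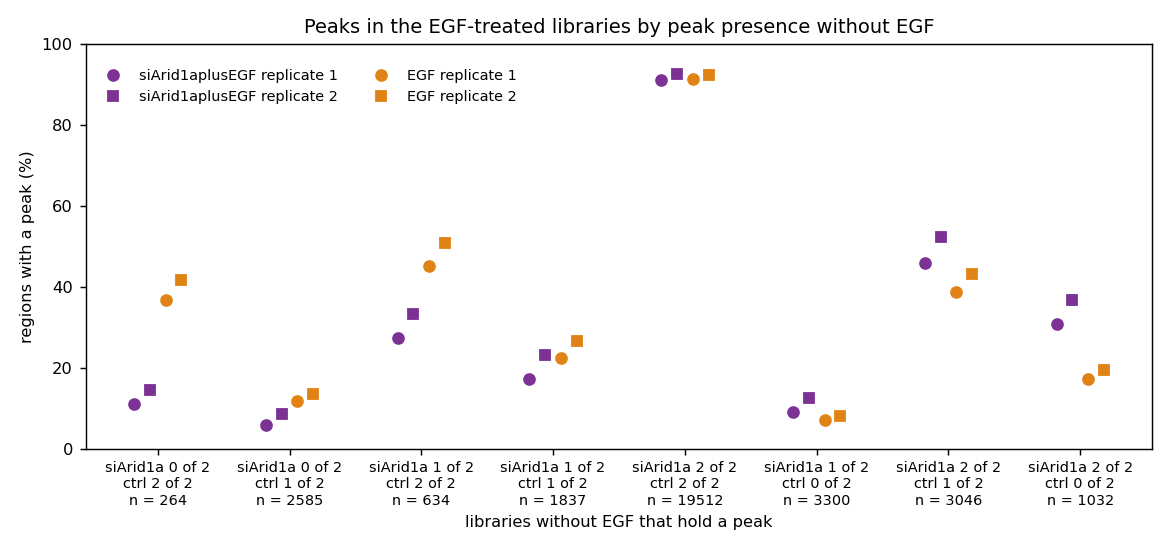
Share of regions with a peak in each EGF-treated library, by the number of knockdown (siArid1a) and control (ctrl) libraries without EGF that hold a peak, with the number of regions under each set; regions without any such peak are not shown. The knockdown libraries with EGF lie below the EGF libraries in the 264 regions at the left, at 11.0% and 14.4% against 36.7% and 41.7%, and above them in the 1032 regions at the right.

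The lost regions were spread over all autosomes. Chromosome 1 held 26 of them (1.28% of its 2039 regions) and chromosome 10 held 24 (1.26% of 1912), against 6 on chromosome 13 (0.452% of 1328). Chromosome X held 0 of 264, with 687 regions in all. These shares are given as a description, without a test.

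The nearest peak of either knockdown library to a lost region was a median of 13371 bp away, and within 1000 bp in 11 regions. A region shared by all 8 libraries lay within 50000 bp of 175 of them (66.3%, against 74.5% of all regions). The median gap to such a region was 25098 bp, against 17807 bp over all regions. Another lost region was within 50000 bp of 20 of the 264.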

How the data were processed

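H3K27ac peak lists of 8 libraries were analysed. The tools named in the submitters' processing notes are MACS2 2.1.1.20160309.0, deepTools 3.0.2, SAMtools and Bowtie2 2.3.4.2, and the build is mm9. Each deposited list holds the peaks of 1 library. Caller settings and any input library are not stated. The score in the deposited lists is 10 times the −log10 q-value cut to a whole number; the deposited fold enrichment (a ratio), −log10 p and −log10 q are the authors' values and served only to rank or describe peaks. The deposited files hold no read counts, so depth cannot be corrected for, and a deeper library can give a longer list with wider peaks.

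Peaks were merged and covered bp per region summed with pandas 2.3.3. Covered length was fitted with limma 3.58.1 (trend) in R 4.3.3 on the 4 EGF-treated libraries, so that neither difference nor spread used the libraries the rule asks, although all 8 set the regions' borders. Alternatives were another score cut, lists of equal length, minimum cover, merging distance, pseudocount, filter and normalization, a replicate block, and each library left out. The threshold was an adjusted p of 0.05. Steps were tested on simulated data. Named regions are the 20 with the highest lower control score percentile, the first 3 of each of 4 patterns under EGF, and others said to be chosen later. Regions, patterns and lists were chosen with earlier results of these data known.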

Additional observations from a re-analysis of the deposited data

Results flagged for a closer look

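The region chr16:84392061-84392658 stood out because knockdown went with opposite directions in the presence and absence of EGF. With EGF it averaged 266.5 bp of covered length in knockdown cells and had no peak in EGF cells, while without EGF it had no peak in knockdown cells and averaged 459.5 bp in control cells. The difference between these effects was not tested, since the libraries without EGF chose the region. Its limma adjusted p under EGF was 0.368 on all 4 libraries and 0.597 with a replicate block. Leaving out either EGF library gave 0.354 (the first left out) or 0.345 (the second left out). With the second knockdown library with EGF left out it was 0.0703, and with the first left out 0.0115. In both of these last fits 1 library stands against a group without spread, the EGF libraries both being at 0 bp.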

How the results depend on the processing

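The difference in peak share between knockdown with EGF and EGF kept its sign in all settings tried, from -28.98 to -7.90 points when a library was left out, and at -17.48, -23.15, -18.16 and -27.18 points for peaks above their list's median score, lists of equal length, cover of at least 50% and merging across 1000 bp. It was -27.15 points with regions merged from the 4 libraries without EGF, an alternative added after seeing the data. The number of lost regions moved more. It was 163 for peaks above their list's median score, 609 on lists of equal length, and 454 to 2659 with a library left out (2659 without the first control library, 454 without the second, 510 and 652 without the first and second knockdown library), where the rule asks fewer libraries. Regions held by both EGF libraries but no knockdown library with EGF then numbered 16, 83 and 46 to 127, and those with the reverse pattern 0, 4 and 1 to 13. The 163 were largely other regions, since 258 of the 264 scored under their list's median in both control libraries. A score cut or a shortened list can also remove a knockdown peak, which makes a further region count as lost. The differences under these settings are therefore not those of the same 264 regions.

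Limma on all 8 libraries called 120 regions lower and 66 higher, and 4 of the lost regions lower. That fit takes part of its spread from libraries that chose the lost regions, so the 4 are no support for a direction. Leaving out each EGF-treated library gave 0 to 1795 regions lower and 0 to 1854 higher, with 0 to 71 lost regions lower and 0 to 2 higher. All 71 lost regions called without the first EGF library, and all 58 without the second, had the same length in both libraries of the group left whole, so no spread remained there. The lone library of a group is assumed to vary like the others. Differences between replicates 1 and 2 were almost uncorrelated between knockdown with EGF and EGF (0.011 over 25761 regions). Whether replicate numbers pair the libraries cannot be told from this. With the replicate number as a block, limma called 0 regions in either direction (3412 at an unadjusted p under 0.05). It also called 0 with pseudocounts of 50 and 1000 bp, a peak in at least 2 libraries, quantile normalization and lists of equal length. The size of the differences hung on the pseudocount. The median of the lost regions fitted was -1.96 at 50 bp and -0.37 at 1000 bp, against -1.09 at 200 bp. Of 31 named regions fitted, 18 by the rule and 13 named after their values were seen, 1 changed sign, chr10:40447487-40448795, at 0.57 on lists of equal length and -1.72 to 0.85 with a library left out.

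With 2 libraries a group the exact permutation p by library cannot go below 0.33, and without read depths a missing peak cannot be told apart from one under the calling threshold.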

Other observations

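Lost regions within 50000 bp of another numbered 20, and the pairs named here were chosen after their values were seen. The widest lost region, chr1:71425887-71430440 with 4554 bp, lay 3052 bp from another, chr1:71419603-71422834. The first had no peak in the knockdown libraries with EGF, against 547 and 2076 bp in the EGF libraries and 2332 and 3774 bp in the control libraries. The second had none in knockdown cells with EGF, against 699 and 1941 bp with EGF and 2223 and 3232 bp in control cells. The first EGF library was the lower at both. The nearest peak of a knockdown library without EGF was 172544 and 180150 bp away, so both stood in a stretch where these libraries had no peak. The limma adjusted p was 0.227 for the first and 0.175 for the second.

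Also on chromosome 1, chr1:73096935-73098410 and chr1:73136085-73137237 lay 37674 bp apart, and both had peaks in both EGF libraries. Only chr1:73136085-73137237 also had a peak with knockdown and EGF, of 405 bp in the second library. On chromosome 4 a pair 2925 bp apart likewise did not share its pattern. There chr4:47242991-47244634 had 551 and 863 bp with knockdown and EGF, against 740 and 1525 bp with EGF, and chr4:47247560-47248320 had no peak in any EGF-treated library.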
